A study of Mus musculus with 6 samples.

Results

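Fibronectin (Fn1) and CD44 (Cd44) are textbook cases of genes whose exons are chosen differently by different cells, and they were examined here in podocytes, the epithelial cells that form the filtration slits of the kidney. The series compared libraries labelled CD2BP2 knockout (KO) with libraries labelled wild type (WT). CD2BP2 is a protein of the U5 particle of the spliceosome, the machine that removes introns. Polyadenylated RNA was sequenced in 3 KO and 3 WT libraries, here called KO1 to KO3 and WT1 to WT3. All exonic parts of the deposited tables whose gene identifier is that of Fn1 (ENSMUSG00000026193) or Cd44 (ENSMUSG00000005087) were taken, which gave 50 parts of Fn1 and 35 of Cd44, 85 of 368092 in all. An exonic part is a stretch of exon bounded by annotated exon edges, and its count was taken to be the number of reads that touch it.

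The labels give both groups the strain C57BL/6 and name podocytes as the source. The knockout allele is a floxed Cd2bp2 with its 3′ loxP site after exon 3 of 7. The treatment text describes another preparation: bone marrow macrophages from CD2BP2 flox/flox MxCre+ mice and littermate controls, 6 to 10 weeks old, given 300 µg of poly(I:C). The sources used here give neither a Cre line for podocytes nor whether each library had its own animal. The p-values therefore speak only of the spread among these libraries, which may be technical. Cd2bp2 stood at 61.0, 61.8 and 60.8 CPM (counts scaled to the size of the library) in WT1 to WT3 and at 48.4, 47.3 and 51.0 CPM in KO1 to KO3. The fitted log2 fold change was −0.32 (SE 0.05, quasi-likelihood test of edgeR, Benjamini-Hochberg adjusted p = 0.0297). The groups did not overlap, and the gene sum also holds exons beyond the 3′ loxP site.

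Library totals ran from 186022084 to 255554573 part counts. The 11 podocyte markers used (Nphs1, Podxl, Synpo and others) summed to 20057 to 23155 CPM in WT and 18666 to 20607 CPM in KO. Endothelial markers summed to 9452 to 10199 CPM in WT and 8883 to 9548 CPM in KO, and mesangial, smooth muscle and stromal markers to 2855 to 3144 and 2683 to 3226 CPM. Proximal tubule markers ran from 524 to 1015 CPM in WT and from 873 to 1321 CPM in KO. Loop, distal tubule and collecting duct markers ran from 178 to 329 CPM in WT and from 262 to 1393 CPM in KO, highest in KO2. The libraries therefore held RNA of several cell types, and fewer cells of a type cannot be told apart from less RNA per cell.

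Fibronectin is a secreted matrix protein built of repeated domains, and integrins bind it at the cell surface. Its transcript has 3 variable regions. EDB and EDA are whole exons, each coding for 1 type III repeat, that are included in cellular fibronectin of mesenchymal and injured tissue and skipped in the plasma fibronectin made by the liver. The IIICS or V region is cut to different lengths through splice sites inside 1 exon and carries a binding site for lymphocyte integrins. CD44 is a membrane receptor for hyaluronan. Its standard form skips a run of consecutive variant exons, v1 to v10, and epithelial and activated cells can include some of them. In glomerular disease CD44 is widely used as a marker of activated parietal epithelial cells.

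The variable exons compared here were told by their place and length in the reference transcripts Fn1-201 and Cd44-201 (GENCODE M21). Of the 44 internal exons of Fn1-201 all 44 had the length of a deposited part or run of parts, and of the 17 of Cd44-201 all 17 did. The sequences of 5 of these exons are shown because the usage results turn on them. They are from the reference transcripts, build GRCm38, minus strand. In the first 4, capitals mark GAAGA, a purine-rich word of the kind that SR proteins and Tra2 proteins bind in exons, searched on the transcribed strand only.
EDB, exon 25 of Fn1, chr1:71613763-71614035: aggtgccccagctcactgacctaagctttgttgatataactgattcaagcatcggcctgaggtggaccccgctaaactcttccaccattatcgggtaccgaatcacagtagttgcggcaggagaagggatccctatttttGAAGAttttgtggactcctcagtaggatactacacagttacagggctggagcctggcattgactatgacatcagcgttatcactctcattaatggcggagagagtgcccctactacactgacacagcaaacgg
EDA, exon 33 of Fn1, chr1:71603660-71603929: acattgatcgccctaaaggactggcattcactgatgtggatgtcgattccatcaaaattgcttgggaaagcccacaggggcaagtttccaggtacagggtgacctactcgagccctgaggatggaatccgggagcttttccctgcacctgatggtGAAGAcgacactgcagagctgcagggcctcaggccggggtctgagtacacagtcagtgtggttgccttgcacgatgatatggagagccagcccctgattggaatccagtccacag
v7, exon 12 of Cd44, chr2:102837813-102837938: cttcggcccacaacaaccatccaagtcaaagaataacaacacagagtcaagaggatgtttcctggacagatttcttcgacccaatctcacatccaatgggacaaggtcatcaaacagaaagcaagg
v10, exon 15 of Cd44, chr2:102831330-102831536: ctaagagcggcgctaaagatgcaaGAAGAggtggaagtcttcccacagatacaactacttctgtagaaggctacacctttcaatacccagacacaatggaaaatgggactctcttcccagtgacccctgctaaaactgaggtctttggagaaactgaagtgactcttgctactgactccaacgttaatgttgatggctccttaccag
IIICS, first 120 bases of exon 40 of Fn1, chr1:71597628-71597747: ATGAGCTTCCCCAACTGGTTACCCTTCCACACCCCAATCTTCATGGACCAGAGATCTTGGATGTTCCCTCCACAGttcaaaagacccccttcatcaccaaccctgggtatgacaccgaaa

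EDB and EDA each held GAAGA 1 time, at base 141 of 273 and base 156 of 270. Of all internal exons of protein-coding transcripts within 10 bases of those lengths, 52.7% and 50.8% held it. In v10 it stood 1 time, at base 25 of 207, against 46.1% of exons of that length. In v7, of 126 bases, it was not found, against 34.9% of exons of that length that hold it. Among the 10 variant exons v1 and v7 had no match in these letters. Each of the others held it, 2 times in v3, v6 and v9 and 1 time in the rest. Over all internal exons of protein-coding transcripts 35.6% held it, and 29.3% of those of about the length of v9. For IIICS, capitals mark the 75 bases that the annotated 392-base form of the exon leaves out. The 107-base form leaves out the first 360 bases, all those shown among them, and the 467-base form keeps them.

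Fn1 lies at chr1:71632094-71699774 on NCBIM37, the build of the deposited tables. Its gene sum was 22.8, 28.03 and 92.7 CPM in WT1, WT2 and WT3, and 30.5, 31.8 and 46.4 CPM in KO1, KO2 and KO3. WT3 stood at 3.31 times the next WT library and 2.00 times the highest KO library, while the other WT libraries were below all KO libraries. The groups therefore overlapped through 1 library. Fn1 was not called (log2 fold change −0.40, SE 0.54, edgeR adjusted p = 0.705), where 3.37% of 19742 genes were called. Without WT3 the log2 fold change was 0.51 (adjusted p = 0.237), and leaving out both WT3 and KO3, which was added once the values were known, gave 0.29 (adjusted p = 0.220). The direction for Fn1 thus rested on WT3.

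The erythroid marker list gave the same order of the 6 libraries as Fn1. Its 3 measured genes, led by the near-identical alpha-globin copies Hba-a1 and Hba-a2, summed to 5.78, 14.2 and 109 CPM in WT1 to WT3 and to 14.5, 23.9 and 59.1 CPM in KO1 to KO3. WT3 and KO3 were highest for both. None of the 3 erythroid genes tested was called by edgeR, and 0 had an unadjusted p under 0.05. The fibulin gene Fbln2, a matrix protein that binds fibronectin, was picked out after its values were seen. It stood at 16.1, 27.6 and 87.4 CPM in WT1 to WT3 and at 28.5, 28.7 and 31.9 CPM in KO1 to KO3, also highest in WT3. In the mesangial, smooth muscle and stromal list some genes were highest in WT3 too, also picked out after their values were seen. Among them were Myh11 (137 CPM, 38.2 to 65.9 CPM elsewhere), Acta2 (145 CPM, 59.6 to 98.1 CPM elsewhere) and Cnn1 (2.80 CPM). Pdgfrb (686 CPM) and Itga8 (1190 CPM) of that list were lowest in WT3. The part of blood cells, smooth muscle or any other tissue in the Fn1 level of WT3 was not tested.

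Cd44 lies at chr2:102651298-102741822 on NCBIM37. Its gene sum was 6.51, 5.69 and 5.96 CPM in WT1 to WT3 and 9.98, 7.60 and 10.6 CPM in KO1 to KO3. Every KO library was above every WT library, an order that 14.1% of all genes tested shared. The WT mean was 6.05 ± 0.42 CPM and the KO mean 9.38 ± 1.57 CPM (SD, n = 3 each), a ratio of 1.55. The log2 fold change of 0.63 (SE 0.14, unadjusted p = 0.00366) missed the threshold after adjustment over all genes (edgeR adjusted p = 0.0694). DESeq2, whose test calls more genes here, passed it (adjusted p = 0.000795). The direction was the same under all 15 alternatives run, with log2 fold changes from 0.53 to 0.75.

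The macrophage and myeloid markers moved with Cd44. Their 13 measured genes, among them Lyz2 and Csf1r and none at 0 in all libraries, summed to 147, 110 and 142 CPM in WT1 to WT3 and to 233, 214 and 244 CPM in KO1 to KO3. Of the 13, 3 rose (Lyz2, Tyrobp and Spi1) and 0 fell, where 1.62% of all genes tested rose and 1.76% fell. Lyz2, the macrophage lysozyme, stood at 49.6, 37.3 and 40.6 CPM in WT and 84.2, 86.3 and 97.8 CPM in KO (log2 fold change 1.07, SE 0.12, edgeR adjusted p = 0.0166). The median log2 fold change over the 13 was 0.86 against 0.01 over all genes. A rise was not particular to this list. Over the 12 proximal tubule markers the median was 0.55, with 2 called higher by edgeR and 0 lower. Over the 12 loop, distal tubule and collecting duct markers it was 1.63, with 1 called higher and 0 lower. The 12 lymphocyte markers summed to 7.95 to 21.8 CPM in WT and 13.7 to 27.7 CPM in KO, with 0 called by edgeR and 3 at an unadjusted p under 0.05, near the 22.6% of all genes that had one. The 10 parietal epithelial markers summed to 368, 303 and 317 CPM in WT1 to WT3 and to 398, 541 and 363 CPM in KO1 to KO3. They overlapped through KO3 and were highest in KO2, where Cd44 was lowest of the KO libraries (7.60 CPM). Of the 10, 2 rose (Pax8 and Vcam1) and 0 fell, against the same 1.62% and 1.76% of all genes. Ncam1 and Akap12 had negative log2 fold changes (−0.11 and −0.12), neither called. Vcam1 stood at 26.3, 16.7 and 15.8 CPM in WT and 41.4, 59.4 and 44.1 CPM in KO (log2 fold change 1.30, SE 0.23, edgeR adjusted p = 0.0447). The part of these cells in the Cd44 level was not tested.

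Per length, over the standard exons that every full-length form uses, the level of Fn1 was 3.06, 3.80 and 12.6 CPM per kilobase in WT1 to WT3 and 4.16, 4.30 and 6.34 in KO1 to KO3. The level of Cd44 on the same scale was 2.35, 1.97 and 2.24 in WT and 3.73, 2.50 and 4.32 in KO. Fn1 was the higher of the pair in each of the 6 libraries.

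**Figure D1:**
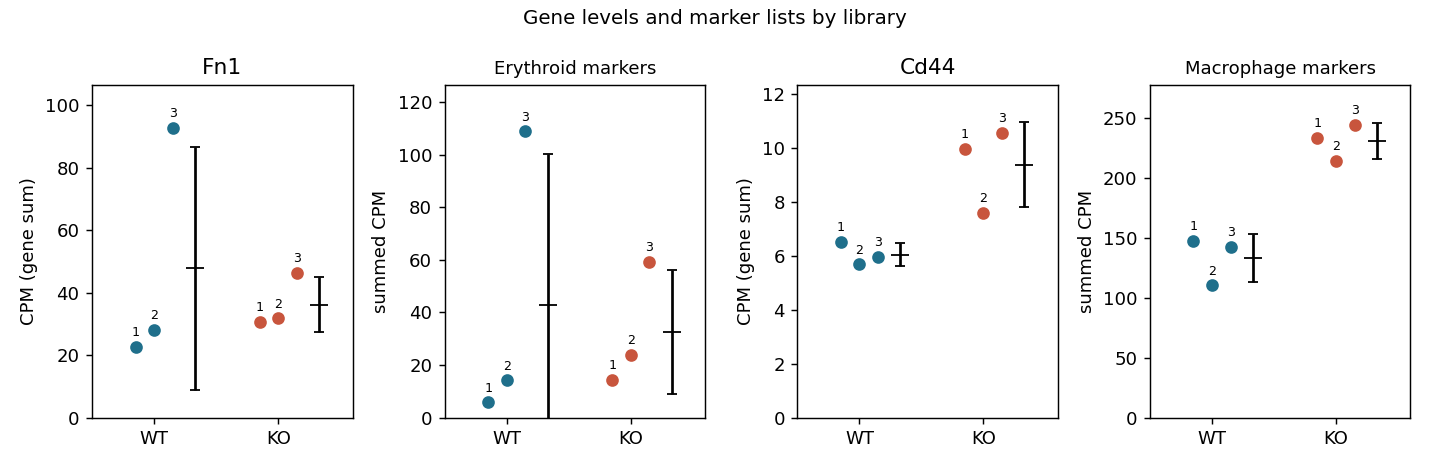
Levels of Fn1 and Cd44 (CPM, gene sum) and the summed CPM of the erythroid and macrophage marker lists, with 1 point per library numbered by replicate, and the mean ± SD of 3 libraries as a bar (cut at 0 for the erythroid list). WT3 stands apart for Fn1 (92.7 CPM) and the erythroid list (109 CPM), and all KO libraries are above all WT libraries for Cd44 and the macrophage list.

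Along Fn1, EDB was read at a small fraction of the depth of its neighbours, EDA at an intermediate depth, and the IIICS exon about as deeply as the exons around it. A read spans up to 101 bases, so a part was scored by its counts per position at which a read can start and still touch it (its length plus 100), a scale added after seeing the data. On this scale the 41 standard internal parts of Fn1 ran from 63.3% to 150% of their own average in WT and from 62.3% to 148% in KO. The mean for EDB was 7.19% ± 2.16 over the WT libraries and 4.70% ± 0.57 over the KO libraries (SD, n = 3 each). EDA stood at 31.5% ± 8.24 in WT and 23.2% ± 6.31 in KO. Both were below every standard part in both groups.

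**Figure D2:**
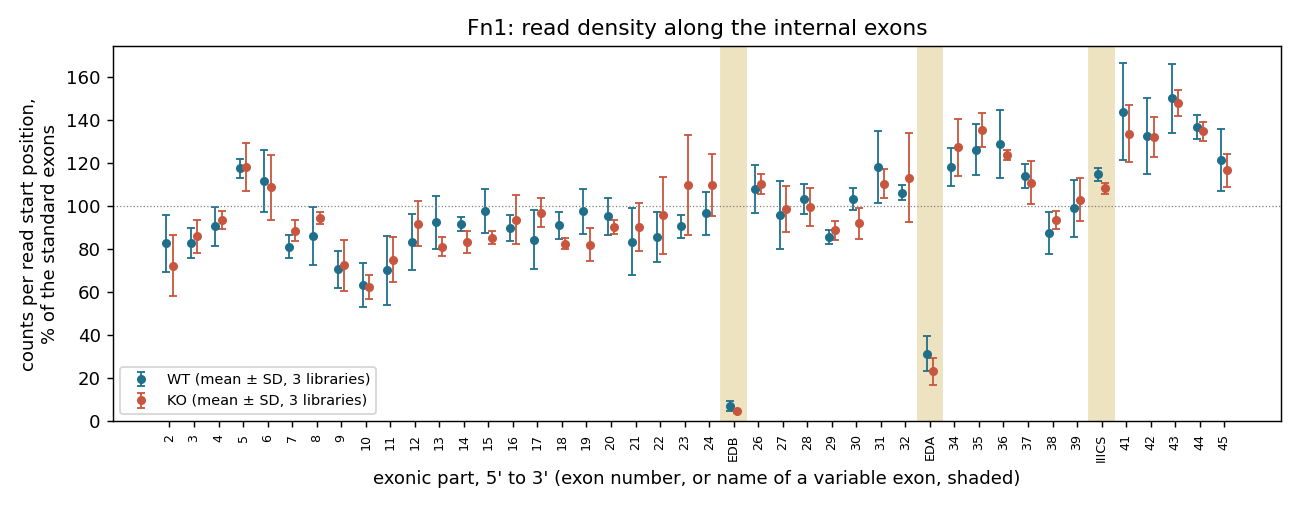
Read density along the internal exons of Fn1, 5′ to 3′, as counts per read start position in percent of the standard exons of the same library (mean ± SD of 3 libraries per group, variable exons shaded). EDB (7.19% in WT, 4.70% in KO) and EDA (31.5% and 23.2%) lie below all standard exons, while the IIICS exon (115% and 108%) lies among them.

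EDB had 6, 13 and 54 counts in WT1 to WT3 and 10, 10 and 18 in KO1 to KO3, out of Fn1 gene sums of 4233, 5048, 21108, 7927, 6976 and 11131 counts. Its share of the Fn1 counts was 0.142%, 0.258% and 0.256% in WT and 0.126%, 0.143% and 0.162% in KO. The groups overlapped, since WT1 lay within the KO range, and the difference was not detectable (exact two-sided permutation test, p = 0.3, n = 3 each, where 0.1 is the smallest p this design can give). For WT1 the 95% Wilson interval of the share was 0.0650% to 0.309%, which covers all 3 KO shares. Such intervals cover counting error only.

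Set against the exon on each side, exons 24 and 26, EDB gave ratios of 0.050, 0.076 and 0.083 in WT1 to WT3 and 0.035, 0.045 and 0.049 in KO1 to KO3. Here every KO library was below every WT library (means 0.070 ± 0.017 and 0.043 ± 0.007, SD, n = 3 each). Per base, with no allowance for the read span, the means were 0.062 ± 0.015 and 0.038 ± 0.006. On either scale the exact permutation p was 0.1, the smallest possible, and 0.4 after Benjamini-Hochberg adjustment over the 4 regions compared. The separation depended on the reference exons. Exon 24 took 2.17%, 2.58% and 2.14% of the Fn1 counts in WT1 to WT3 and 3.03%, 2.42% and 2.43% in KO1 to KO3. Exon 26 took 2.17%, 2.63% and 2.64% in WT and 2.49%, 2.49% and 2.70% in KO. The groups overlapped for both exons. With all standard exons as the reference, WT1 (4.70%) fell inside the KO range of 4.12% to 5.27%.

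EDA had 28, 57 and 223 counts in WT1 to WT3 and 72, 47 and 59 in KO1 to KO3. Its share of the Fn1 counts was 0.661%, 1.13% and 1.06% in WT and 0.908%, 0.674% and 0.530% in KO. WT2 and WT3 were above all KO libraries and WT1 was below KO1 and KO2, so the groups overlapped (exact permutation p = 0.3). Against exons 32 and 34 the ratio of EDA was 0.189, 0.355 and 0.300 in WT and 0.229, 0.182 and 0.158 in KO (exact permutation p = 0.2, adjusted over the 4 regions 0.4). The mean ratio of the WT libraries was 0.281 ± 0.084 and that of the KO libraries 0.190 ± 0.036 (SD, n = 3 each). Per base the means were 0.232 ± 0.070 and 0.156 ± 0.030. The ratio of EDA was above that of EDB in each of the 6 libraries.

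The IIICS exon had 228, 260 and 1124 counts in WT1 to WT3 and 393, 344 and 577 in KO1 to KO3. Its share was 5.39%, 5.15% and 5.33% in WT and 4.96%, 4.93% and 5.18% in KO, with KO3 above WT2 (exact permutation p = 0.2). In percent of all standard exons its density was 117%, 111.4% and 115% in WT and 107%, 107% and 111.0% in KO, which left no overlap by a narrow margin (exact permutation p = 0.1). Against exons 39 and 41 the ratio was 0.927, 0.859 and 0.996 in WT and 0.842, 0.936 and 0.929 in KO (exact permutation p = 0.7), and per base the means were 0.601 ± 0.044 and 0.585 ± 0.034 (SD, n = 3 each). With even read density the ratio would be 1 if all transcripts used the 467-base form. It would be 0.868 with the 392-base form alone and 0.365 with the 107-base form alone. All 6 libraries were far above the last value, and the deposited covered fraction of this exon was 100% in every library. Density was not even. Exons 39 and 41 themselves stood at 99.0% and 144% of the standard exons in WT and at 103% and 134% in KO. The ratio therefore cannot tell the 467-base form from the 392-base form. The tables hold the exon as 1 part, so the splice sites inside it cannot be told apart.

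**Figure D3:**
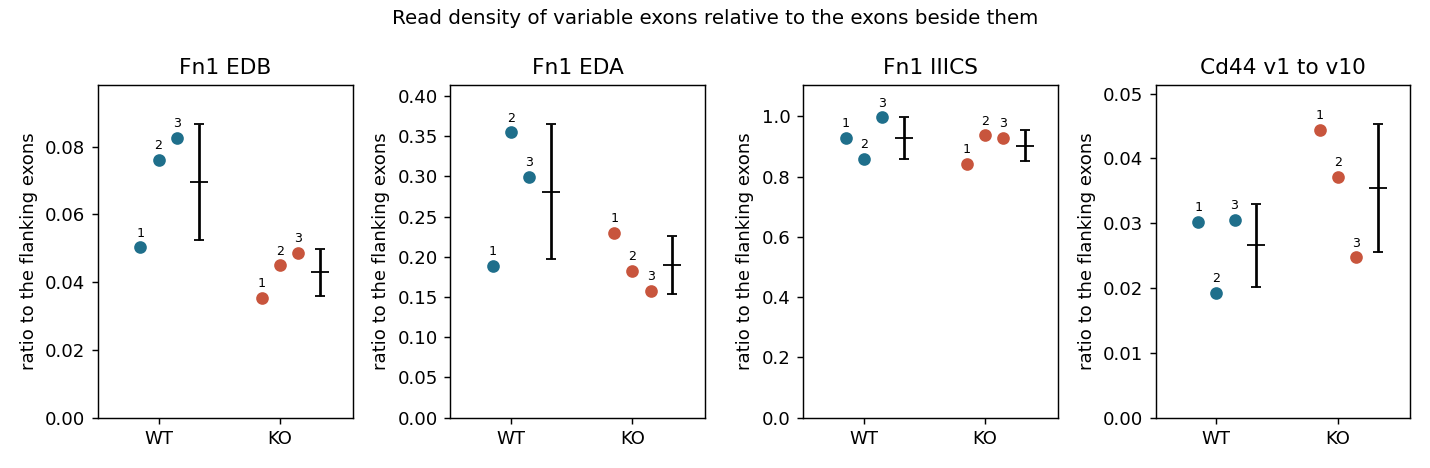
Ratio of the read density of EDB, EDA, IIICS and the 10 Cd44 variant exons to that of the standard exons beside them, with 1 point per library numbered by replicate and the mean ± SD of 3 libraries. The KO libraries lie below the WT libraries for EDB (0.035 to 0.049 against 0.050 to 0.083), and the groups overlap in the other 3 panels.

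Each part's usage, its share of its own gene, was also tested in 1 fit over 236061 parts with diffSpliceDGE of edgeR. Of 46 Fn1 parts tested 0 were called, where 0.0627% of all parts tested were called, and 0 had an unadjusted p under 0.05, where 1.16% of all parts did. By diffSpliceDGE of edgeR the 3 smallest p of the gene belonged to EDA (log2 difference in usage −0.58, unadjusted p = 0.549), EDB (−0.73, unadjusted p = 0.618) and the first-exon part of 340 bases (−0.27, unadjusted p = 0.704), all with an adjusted p of 1.00. IIICS had a difference of −0.08. The 41 standard parts lay between −0.21 and 0.21, so EDA and EDB had the 2 lowest estimates of the gene. Their p-values in this fit cannot decide whether they stand apart. The fit takes its spread from each part's own level, and the Fn1 level of WT3 was high. How far this widened the spread was not tested. With WT3 left out, diffSpliceDGE tested 46 Fn1 parts and called 0, with 0 at an unadjusted p under 0.05. limma-voom diffSplice also called 0, with 0 at an unadjusted p under 0.05. An edgeR test with the gene sum as offset called 0. It gave 1 unadjusted p under 0.05, where 6.01% of all parts had one, for EDA (log2 difference −0.50, unadjusted p = 0.0434, adjusted p = 0.815). For EDB the same edgeR test gave −0.67 (unadjusted p = 0.0585, adjusted p = 0.851).

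Usage was lower in all KO than in all WT libraries in 2 of the 46 tested Fn1 parts, near the 5.69% of all parts that showed this order, and higher in 0, where the share over all parts was 5.48%. One was the 340-base part of the first exon, at 1.843%, 2.00% and 2.15% in WT1 to WT3 and 1.46%, 1.83% and 1.842% in KO1 to KO3. All 3 first-exon parts share bases with an antisense gene on the opposite strand, named Apol7d in the annotation, whose reads cannot be told apart from Fn1 reads. The other was exon 14, at 2.008%, 2.04% and 2.17% in WT and 2.006%, 1.76% and 1.92% in KO. Over the 3 variable regions together the share was 6.19%, 6.54% and 6.64% in WT and 5.99%, 5.75% and 5.88% in KO. The remaining 4 Fn1 parts were not tested, 1 of them with no counts in any library.

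The density of reads rose towards the 3′ end in Fn1. The first 10 standard parts had 0.655, 0.647 and 0.775 of the density of the last 10 in WT1 to WT3, and 0.631, 0.769 and 0.731 in KO1 to KO3. The groups overlapped (exact permutation p = 1.0).

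In Cd44 few reads lay in the variant exons. The 10 variant exons took 19, 11 and 23 counts in WT1 to WT3 and 54, 27 and 36 in KO1 to KO3, out of gene sums of 1209, 1024, 1357, 2591, 1669 and 2538 counts. These counts include both parts of v9, of 86 and 4 bases, and a read that touches both was taken to enter each. The 4-base part had 3, 1 and 2 counts in WT and 4, 3 and 1 in KO. Their joint share was 1.57%, 1.07% and 1.69% in WT and 2.08%, 1.62% and 1.42% in KO (exact permutation p = 0.5). KO1 was highest and WT2 lowest, and KO3 lay below WT1 and WT3. Against exons 5 and 16, which border the variant run, their density gave ratios of 0.030, 0.019 and 0.030 in WT and 0.044, 0.037 and 0.025 in KO (exact permutation p = 0.3). The means were 0.027 ± 0.006 and 0.035 ± 0.010 (SD, n = 3 each), and per base 0.030 ± 0.007 and 0.040 ± 0.011.

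**Figure D4:**
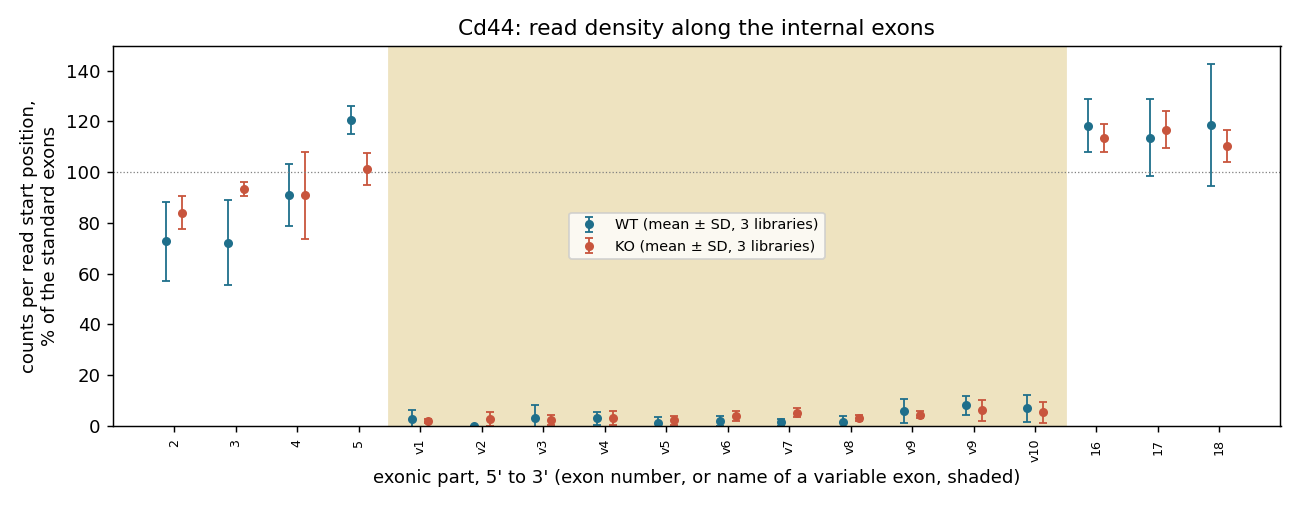
Read density along the internal exons of Cd44, 5′ to 3′, as counts per read start position in percent of the standard exons of the same library (mean ± SD of 3 libraries per group, variant exons shaded; v9 is held as 2 parts). The variant exons lie between 0% and 8.10% in both groups, and the 7 standard exons between 72.2% and 121%.

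Among the variant exons v10 had most counts, 2, 3 and 11 in WT1 to WT3 and 15, 5 and 2 in KO1 to KO3. It was highest in KO1 and WT3, and the groups overlapped. v9, next to it, had 19 counts on its 86-base part, 8 in WT and 11 in KO. The other exons had 9 to 18 counts each over the 6 libraries. Pooled over the libraries of a group, the density relative to exons 5 and 16 ran from 0% to 6.24% in WT and from 1.83% to 4.94% in KO, highest for v10 in both.

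Of the variant exons, v7 and v2 had the most unequal counts, and both were picked out after their values were seen. v7 had 1, 1 and 0 counts in WT1 to WT3 and 8, 4 and 4 in KO1 to KO3. Its share of the Cd44 counts was 0.0827%, 0.0977% and 0% in WT and 0.309%, 0.240% and 0.158% in KO, so the groups did not overlap. Of the 11 variant parts 1 showed this order, and 5.48% of all parts that passed the filter of the main fit did. The count is therefore not a result about the variant exons. v2 had 0 counts in all WT libraries, which allows a share of up to 0.0836% of their 3590 Cd44 counts together, and 6, 0 and 4 counts in KO. v1 to v7 together took 0.579%, 0.586% and 0.590% in WT and 1.08%, 0.839% and 0.985% in KO. v8 to v10, with both parts of v9 counted, took 0.993%, 0.488% and 1.11% in WT and 1.00%, 0.779% and 0.433% in KO. This split was also made after the values were seen and has no test.

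None of the 11 variant parts passed the filter on low counts of the main fit, so that fit says nothing about them. A looser filter, a total count of at least 10, let in all variant exons but v5, which had 9 counts. With it diffSpliceDGE tested 31 Cd44 parts and called 0. Of these, 1 had an unadjusted p under 0.05, as did 3998 of all 276526 parts tested. Of 17 Cd44 parts tested by diffSpliceDGE in the main fit 0 were called and 0 had an unadjusted p under 0.05. By the same edgeR test the 3 smallest p, all with an adjusted p of 1.00, belonged to exon 3 (log2 difference in usage 0.40, unadjusted p = 0.199) and to 2 parts of the last exon, of 1573 bases (−0.15, unadjusted p = 0.338) and 205 bases (−0.22, unadjusted p = 0.385). limma-voom diffSplice also called 0, with 0 at an unadjusted p under 0.05. In edgeR with the gene sum as offset 0 were called, and 1 had an unadjusted p under 0.05, the 1573-base part (unadjusted p = 0.0368, adjusted p = 0.795). The other 18 parts were not tested in the main fit, 1 of them with no counts.

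The last-exon pair were also the only Cd44 parts of the main fit whose groups did not overlap, 2 lower in KO and 0 higher of 17. Over all parts, 5.69% were lower and 5.48% higher in all KO libraries. With so few parts the count is not a result about Cd44. The 1573-base part took 27.5%, 26.6% and 25.2% of the Cd44 counts in WT1 to WT3 and 23.9%, 24.3% and 23.05% in KO1 to KO3. The 205-base part took 8.11%, 8.40% and 8.25% in WT and 6.33%, 7.37% and 7.49% in KO. Both were lower in KO, while the last 1389 bases of the same exon, which end the transcript, had a log2 difference of 0.04. Exon 3, in the part of the gene that codes for the hyaluronan-binding region, had 44, 24 and 55 counts in WT and 112, 65 and 127 in KO. As a share of the Cd44 counts this was 3.64%, 2.34% and 4.05% in WT and 4.32%, 3.89% and 5.00% in KO, with overlap. The first 3 standard exons of Cd44 had 0.762, 0.445 and 0.831 of the density of the last 3 in WT and 0.822, 0.739 and 0.793 in KO, with WT2 lowest (exact permutation p = 0.7).

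Of 30 tested members of a list of fibronectin receptors and matrix partners, 0 rose and 1 fell, about the 3.37% of all genes called, and their median log2 fold change was −0.01 against 0.01 over all genes. The gene that fell was Sdc1, the matrix co-receptor syndecan-1, at 50.9, 49.3 and 56.6 CPM in WT1 to WT3 and 41.8, 33.8 and 35.1 CPM in KO1 to KO3 (log2 fold change −0.50, SE 0.10, edgeR adjusted p = 0.0490). It was no longer called when any 1 library was left out. Thbs1, the matrix protein thrombospondin-1, stood at 207, 177 and 179 CPM in WT and 241, 256 and 227 CPM in KO (log2 fold change 0.36, adjusted p = 0.0640). Itgb5, a subunit of a vitronectin-binding integrin, stood at 1142, 1165 and 1073 CPM in WT and 984, 908 and 949 CPM in KO (log2 fold change −0.25, adjusted p = 0.0767).

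Of 30 tested genes of CD44 ligands, partners and hyaluronan metabolism, 0 were called by edgeR, while 8 had an unadjusted p under 0.05, 5 higher and 3 lower, a share near the 22.6% of all genes tested that did. DESeq2 called 4 and limma-voom 0. Hyal1 and Hyal3 share 1 joined identifier and have the same values. The median log2 fold change was 0.03. The 3 smallest p were those of Hapln1, a link protein that binds hyaluronan, Rdx, which ties CD44 to actin, and Cemip2, a cell-surface hyaluronidase. Hapln1 stood at 4.19, 6.69 and 4.50 CPM in WT1 to WT3 and 1.85, 2.52 and 2.78 CPM in KO1 to KO3, with no overlap (log2 fold change −1.10, SE 0.24, adjusted p = 0.0640). Rdx stood at 443, 453 and 428 CPM in WT and 360, 395 and 364 CPM in KO (log2 fold change −0.24, adjusted p = 0.0708). Cemip2 stood at 212, 214 and 145 CPM in WT and 131, 125 and 114 CPM in KO (log2 fold change −0.63, adjusted p = 0.0850).

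Of 25 splicing factors reported to act on fibronectin or CD44 exons, 0 rose and 1 fell, near the 3.37% of all genes called, and the median log2 fold change was −0.11 against 0.01 over all genes. At an unadjusted p under 0.05 stood 2 higher and 7 lower, where 22.6% of all genes had such a p. The 2 higher, named after their values were seen, were Esrp1 and Esrp2, epithelial factors known to favour CD44 variant exons. Esrp1 stood at 0.441, 0.178 and 0.676 CPM in WT1 to WT3 and 1.25, 2.75 and 0.633 CPM in KO1 to KO3 (log2 fold change 1.83, SE 0.66, edgeR adjusted p = 0.174), with overlap through KO3. Esrp2 stood at 4.23, 3.42 and 5.48 CPM in WT and 6.30, 8.07 and 5.54 CPM in KO, with no overlap (log2 fold change 0.60, SE 0.22, edgeR adjusted p = 0.174). Loop, distal tubule and collecting duct markers were likewise highest in KO2 (1393 CPM) and then KO1 (521 CPM), and their part in these values was not tested. Smarca2, the Brahma ATPase reported to favour CD44 variant exons, stood at 359, 366 and 365 CPM in WT1 to WT3 and 312, 289 and 283 CPM in KO1 to KO3 (log2 fold change −0.30, SE 0.05, edgeR adjusted p = 0.0424). This call too was lost when any 1 library was left out. Tra2b, which binds GAA-rich exon sequences, stood at 193, 187 and 186 CPM in WT and 152, 151 and 169 CPM in KO (log2 fold change −0.26, adjusted p = 0.0653). Tra2a, its paralog, stood at 96.4, 98.9 and 103 CPM in WT and 80.1, 62.3 and 80.9 CPM in KO (log2 fold change −0.42, adjusted p = 0.0867).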

How the data were processed

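Per the file headers, the deposited tables use Ensembl 67 on the mouse build NCBIM37, cut into 368092 exonic parts, with the raw read count of each part, its covered bases, its length and its covered fraction as deposited. TopHat 1.4.1 is listed in the submitters' processing notes together with GRCh37, which is human and goes against the headers. How reads were counted, and whether by strand, is not given in the sources used here, and counts were treated as unstranded. A part's usage is its count over the gene sum, and a read that touches several parts was taken to enter each of them.

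For gene sums the test was the quasi-likelihood test of edgeR 4.0.16 under R 4.3.3 (TMM, filterByExpr, no covariates), and parts were tested with diffSpliceDGE in genes with at least 2 parts kept, and a call is an adjusted p (Benjamini-Hochberg, over all features) under 0.05. For shares and ratios an exact permutation test, two-sided, was used (SciPy 1.17.1), and intervals are 95% Wilson intervals. The scripts were tested on simulated data. Alternatives were RLE normalization, other filters, DESeq2 1.42.0, limma-voom (limma 3.58.1), the gene sum as offset, other denominators and reference exons, parts that overlap no other gene, standard exons alone, a replicate block and leaving out each library. Counts of replicate libraries differed far beyond sampling noise (chi-square per gene 75.9 to 219).

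Reference exons and sequences are from GENCODE M21 (GRCm38), matched by position in the gene and by length. Named were the variable exons, the exons beside them, the 3 parts of each gene with the smallest p, Cd2bp2, and of each pathway list the members past the test or, with fewer than 3, the 3 with the smallest p. Of the marker genes, 2 are not reported here, and 3 further marker symbols had no match in the tables. The members and lists were chosen with earlier results of these data known.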

Additional observations from a re-analysis of the deposited data

How the results depend on the processing

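For Fn1 and Cd44 parts, 0 calls were made under each of the 13 alternatives run for the usage fit. Over all parts, calls went from 148 to 409 with limma-voom diffSplice, to 331 with the gene sum as offset, and to 52 to 175 with 1 library left out. Called genes went from 666 to 2766 with DESeq2, 98 without WT3 and KO3, and 31 to 254 with 1 library left out. The Cd44 level passed the threshold with DESeq2 (log2 fold change 0.63). The Fn1 level turned to 0.51 without WT3 and to 0.29 without WT3 and KO3; with 1 library left out it ran from −0.74 to 0.51. For the fibronectin list the 1 call became 5 with DESeq2, 0 with limma-voom and 0 to 0 with 1 library left out. For the CD44 list the 0 calls became 4 with DESeq2 and 0 to 1 with 1 library left out. For the splicing list the 1 call became 7 with DESeq2 and 0 to 0 with 1 library left out. The difference in IIICS ratio (per base, −0.02, KO minus WT) turned to 0.0060 without WT3 and to 0.0033 without KO1, and ran from −0.038 to 0.0060 with 1 library left out, all within the spread between libraries. The cause of these changes was not tested.

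Same-numbered libraries did not deviate together (correlations 0.11, −0.06 and 0.16), so the numbers were not taken as pairs. With the replicate block, 82 genes and 129 parts were called, 0 of the fibronectin list and 0 of the splicing list; the Cd44 level had an adjusted p of 0.105. With 3 libraries a group, a permutation test cannot go below p = 0.1, and the counts of EDB (6 to 54) and of the Cd44 variant exons (11 to 54) limit what usage differences could be seen.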
